A study of Mus musculus with 6 samples.

Results

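The coreceptor genes and genes of the double-positive stage described here are 9 fixed mouse genes: Cd4, Cd8a, Cd8b1, Themis, Arpp21, Zbtb7b, Runx3, Satb1 and Ikzf3. They were taken by name from the 19937 genes measured on 6 Affymetrix arrays, and each had 1 probe set with a single gene symbol. All 9 were tested, and no filter on low values was applied. Of the 6 arrays, 3 hold double-negative (DN) thymocytes of wild-type mice carrying TLX3, a homeobox gene known from T-cell leukaemia, and 3 hold DN thymocytes of Rag2-/- mice, which cannot rearrange their antigen receptor genes for want of part of the RAG recombinase. TLX3 was delivered with the retroviral vector pMSCV-GFP-TLX3, and the cells were then kept for 4 to 5 weeks on OP9-DL1, a stromal cell line presenting a Notch ligand, with interleukin 7 and Flt3 ligand. The labels give C57Bl/6 mice aged 4 to 6 weeks and call the TLX3 cells tumoral and the Rag2-/- cells control. Whether the Rag2-/- cells were also cultured is unclear from the labels, and no array of cells given the empty vector was analysed here. Genotype, vector and possibly culture therefore cannot be told apart. Nothing in the labels shows that replicates came from separate animals or cultures. The p-values here therefore rest on the spread among 3 arrays a group, and that spread may be only technical. In bulk RNA, fewer cells of a type and less RNA per cell cannot be told apart either.

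Thymocytes start as double-negative cells without CD4 and CD8, pass through a double-positive stage carrying both, and then keep one of them as single-positive T cells. CD4 and CD8 are coreceptors that bind MHC molecules and bring the kinase Lck to the T-cell receptor. CD8 is made either of a pair of alpha chains or of an alpha and a beta chain, and the beta chain reaches the surface only with alpha. Runx3 and Zbtb7b (ThPOK) are transcription factors that oppose each other in the choice of the CD8 or the CD4 lineage: RUNX proteins silence Cd4, and ThPOK represses Runx3 and CD8-lineage genes.

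Of the 9 genes, 6 have an entry in the RefSeq promoter table of GRCm38.p6; Cd4, Cd8b1 and Ikzf3 have none there. The 250 bases before the most upstream start of 4 of them are shown, written 5′ to 3′ on the strand of the gene. Arpp21 and Themis are shown because both were lower on the TLX3 arrays, Cd8a because it is the coreceptor gene beside Cd8b1, and Runx3 because its own promoter holds RUNX letters. Capitals mark a match to the RUNX core TGTGGT, to either E-box bound by E proteins, CAGCTG and also CAGGTG, or to the letters AGATAA bound by GATA factors, each searched on both strands, and no matches overlap.
Arpp21, chr9:112233723-112233972, minus strand: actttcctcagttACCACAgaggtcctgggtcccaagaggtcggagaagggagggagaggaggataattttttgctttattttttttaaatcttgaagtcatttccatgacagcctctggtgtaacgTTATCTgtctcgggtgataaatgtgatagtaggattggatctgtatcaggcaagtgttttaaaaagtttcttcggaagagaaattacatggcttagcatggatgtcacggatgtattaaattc
Themis, chr10:28668110-28668359, plus strand: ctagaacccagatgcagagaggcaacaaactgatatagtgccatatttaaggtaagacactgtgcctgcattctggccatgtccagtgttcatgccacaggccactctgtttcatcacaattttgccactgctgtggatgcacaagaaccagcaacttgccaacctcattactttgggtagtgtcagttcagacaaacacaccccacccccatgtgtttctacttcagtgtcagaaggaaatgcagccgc
Cd8a, chr6:71373177-71373426, plus strand: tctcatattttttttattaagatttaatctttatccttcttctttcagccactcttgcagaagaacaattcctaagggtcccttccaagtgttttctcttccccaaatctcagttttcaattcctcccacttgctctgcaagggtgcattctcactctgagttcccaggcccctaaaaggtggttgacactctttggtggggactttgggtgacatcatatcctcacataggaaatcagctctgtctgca
Runx3, chr4:135120395-135120644, plus strand: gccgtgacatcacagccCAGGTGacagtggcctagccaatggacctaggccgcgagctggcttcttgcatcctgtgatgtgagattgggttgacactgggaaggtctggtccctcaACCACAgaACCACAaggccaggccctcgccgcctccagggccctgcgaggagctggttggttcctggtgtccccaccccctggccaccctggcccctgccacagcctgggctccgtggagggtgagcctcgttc

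Runx3 holds the RUNX letters 2 times, beginning 134 and 126 bases before the start, and CAGGTG 233 bases before it. Arpp21 holds the RUNX letters 237 bases before its start and the GATA letters 123 bases before it. Themis, Cd8a and Satb1 hold none of the 4 motifs in this window, and Zbtb7b holds CAGGTG only. Of 27025 genes with a promoter in the table, 14.2% hold the RUNX letters in the same 250 bases, 12.7% CAGCTG, 17.1% CAGGTG and 10.2% the GATA letters. These are matches of letters and do not show binding. Only the most upstream start of each gene was searched. The promoter table lists 9 starts for Arpp21, 5 for Satb1, 2 each for Themis, Zbtb7b and Runx3, and 1 for Cd8a. Which of them these cells use was not examined.

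The comparison asks how transcripts of this stage stood in DN thymocytes carrying TLX3, set against DN thymocytes of Rag2-/- mice. Cd8b1 was higher on the TLX3 arrays, Themis and Arpp21 were lower, and the other 6 genes were not called. A gene is called at a limma adjusted p under 0.05 with a log2 difference (TLX3 minus Rag2-/-) of at least 1 in size. Of all 19937 genes, 1.44% were called higher and 5.07% lower by that rule, or 6.51% in either direction, beside 3 of these 9. Without the minimum difference 5 of the 9 passed, 3 higher and 2 lower, beside 42.4% of all genes, 23% higher and 19.4% lower. TLX3 and Rag2-/- arrays stood apart without overlap for 7 of the 9, 4 higher and 3 lower, beside 58.3% of all genes, 32.3% higher and 26% lower. The median difference of the 9 was 0.12, beside 0.11 over all genes.

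**Figure D1:**
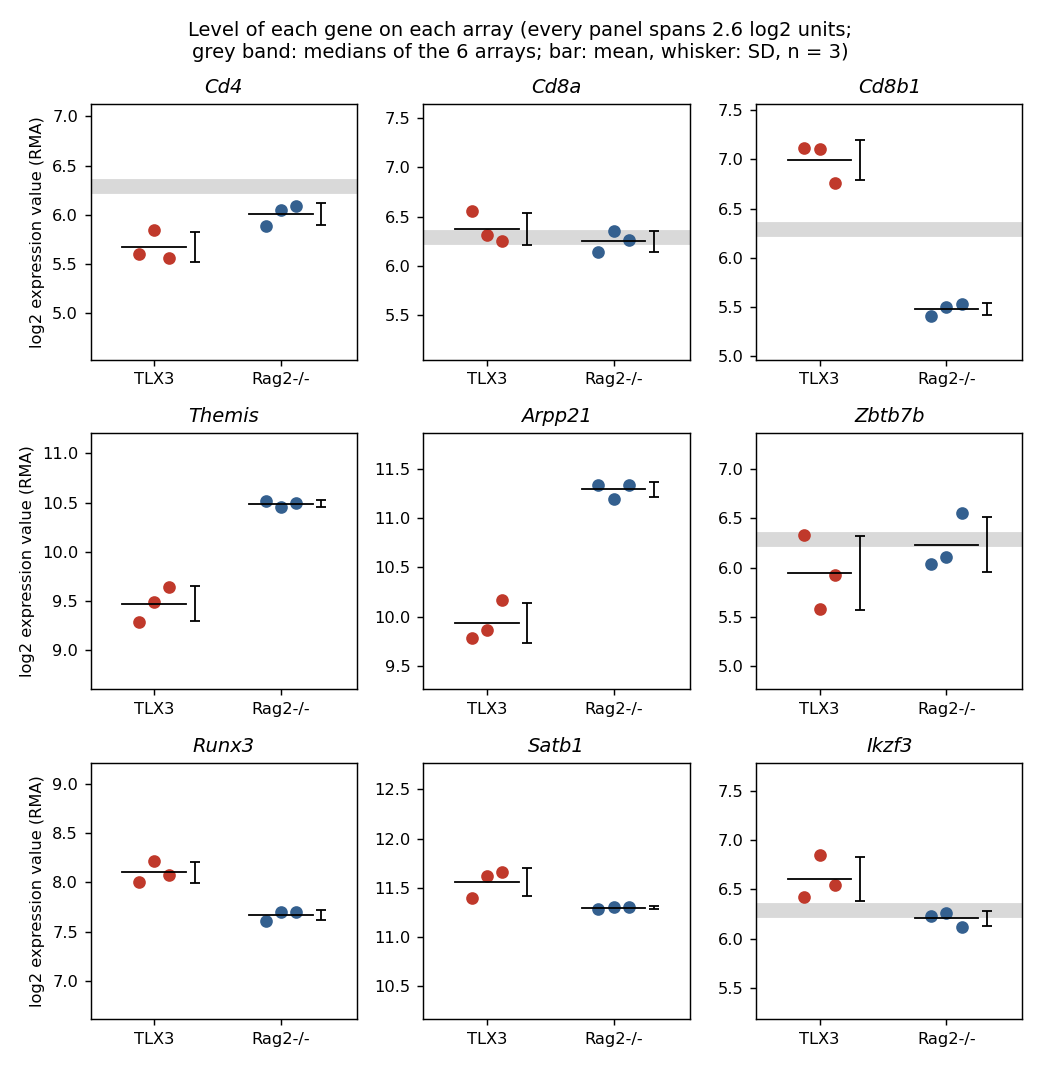
Log2 expression value (vertical axis) of each gene on the 3 TLX3 arrays (red, left) and the 3 Rag2-/- arrays (blue, right), with the mean as a bar and the SD as a whisker. Cd8b1 lies above the grey band of array medians on the TLX3 arrays and below it on the Rag2-/- arrays, Themis and Arpp21 lie lower on every TLX3 array, and Cd8a and Zbtb7b overlap between the groups.

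The arrays differed as a whole in ways that touch these values. The interquartile range over probe sets was 2.47 to 2.85 log2 units on the TLX3 arrays, lowest on replicate 1, and 3.09 to 3.18 on the Rag2-/- arrays. The median difference over all tested probe sets was 0.13, and over all genes it was 0.11 as deposited, 0.04 after repeated quantile normalization and 0.00 after cyclic loess. The array medians lay between 6.22 and 6.35, and a level below them may be background. Of the 12 markers of DN thymocytes checked, 11 had both group means above the median of probe sets (6.26), among them Cd3e, Rag1, Dntt and Bcl11b. Cd7 was the exception on the TLX3 arrays, at 6.11 against 7.85 on the Rag2-/- arrays. The median log2 difference of the 12 was -0.56: Cd7 (-1.74), Il2ra (-1.19) and Ptcra (-1.11) were called lower and none higher, beside 5.07% and 1.44% of all genes. Without the minimum difference 9 were lower and 0 higher, beside 19.4% and 23% of all genes.

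Cd8b1, the CD8 beta chain, was the one coreceptor gene called. It stood at 7.12, 7.11 and 6.76 log2 units on TLX3 replicates 1, 2 and 3, against 5.42, 5.50 and 5.53 on Rag2-/- replicates 1, 2 and 3. The lowest TLX3 array lay above the highest Rag2-/- array by more than the range within either group. The log2 difference was 1.52 ± 0.14 (SE; 95% interval 1.20 to 1.83) with a limma adjusted p of 0.000157. Its Rag2-/- level lay under the array medians, so the true size of the difference is not known. Ranked within each array, Cd8b1 was above 65.3%, 64.0% and 58.6% of tested probe sets on TLX3 replicates 1 to 3, against 35.4%, 36.7% and 36.7% on the Rag2-/- arrays. It was above 99.2% to 99.6% of the probe sets of 1194 receptor genes of smell and pheromone sensing (olfactory and vomeronasal), used here as a guide to background, on the TLX3 arrays, and above 93.3% to 94.2% of them on the Rag2-/- arrays. These receptor genes themselves had a median log2 difference of 0.32, beside 0.11 over all genes.

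Cd8a, the CD8 alpha chain, was not called. Its level was 6.56, 6.32 and 6.25 on the TLX3 arrays, against 6.14, 6.35 and 6.26 on the Rag2-/- arrays, and the groups overlapped. The log2 difference was 0.12 ± 0.13 (SE), with a 95% interval of -0.18 to 0.43 and a limma adjusted p of 0.466. Its interval ends below the one of Cd8b1, and its difference is smaller than the median of 0.32 of the olfactory and vomeronasal receptor genes. On the TLX3 arrays Cd8a lay near the array medians and Cd8b1 above them. Cd8a was above 97.7% to 98.2% of the olfactory and vomeronasal receptor genes there, against 98.5% to 98.7% on the Rag2-/- arrays.

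Set against each other within an array, which a shift common to the whole array does not change, the chains of CD8 had an offset that differed between the groups. The value of Cd8b1 minus that of Cd8a was 0.56, 0.79 and 0.51 on the TLX3 arrays, against -0.72, -0.85 and -0.73 on the Rag2-/- arrays. The groups did not overlap, and the mean changed by 1.39 log2 units, a 2.62-fold change in the ratio of the signals. The exact permutation p was 0.1 (two-sided), the smallest that 3 arrays against 3 allow, and 0.1 after Benjamini-Hochberg adjustment over 3 such pairs. The sign within an array has no meaning of its own, since probe sets differ in brightness.

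**Figure D2:**
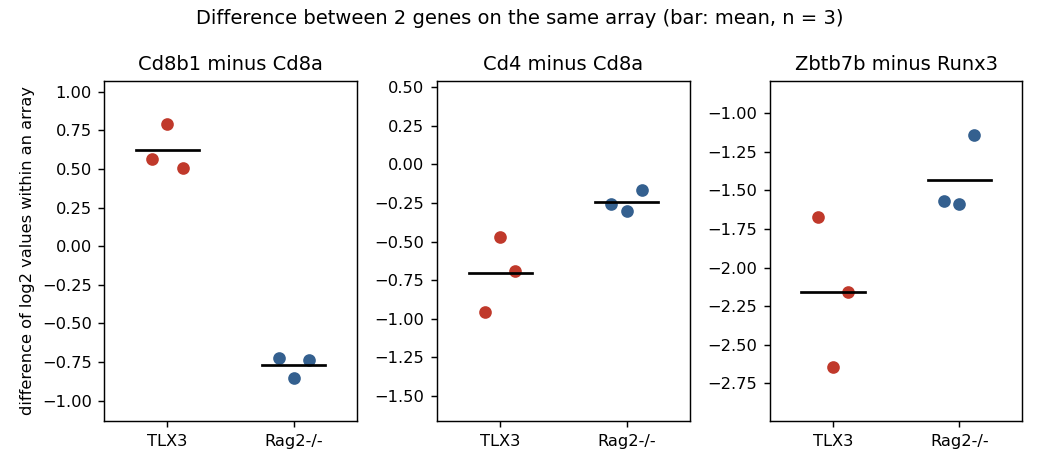
Difference between the log2 values of a pair of genes on the same array (vertical axis), for the TLX3 arrays (red, left) and the Rag2-/- arrays (blue, right), with the mean as a bar. Cd8b1 minus Cd8a lies above 0.5 on all 3 TLX3 arrays and below -0.7 on all 3 Rag2-/- arrays, and the other pairs lie lower on the TLX3 arrays.

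Cd8b1 and Cd8a are next to each other among the protein-coding genes of chromosome 6. The genes around them were looked at after their values had been seen. Gm1070, the neighbour on the Cd8b1 side, had a log2 difference of 0.60 ± 0.15 (SE; limma adjusted p = 0.0128), short of the minimum difference, with means of 6.31 on the TLX3 arrays and 5.71 on the Rag2-/- arrays. Krcc1, one gene further, was at 0.24. On the Cd8a side, Rmnd5a differed by 0.01, and Rnf103 beyond it was at -0.43. Among these 6 neighbouring genes Cd8b1 was the one that was called.

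**Figure D3:**
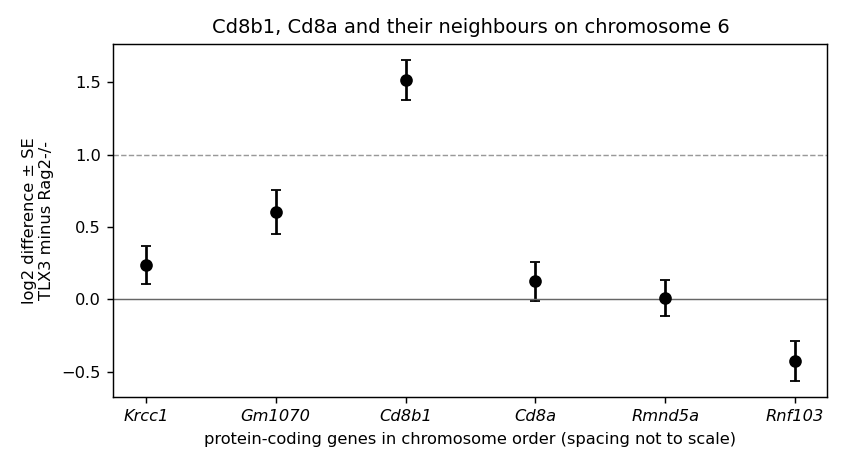
Log2 difference, TLX3 minus Rag2-/-, with its SE (vertical axis), for Cd8b1, Cd8a and 2 protein-coding genes on either side in chromosome order. Cd8b1 stands at 1.52, Gm1070 at 0.60, and Cd8a and Rmnd5a lie near 0.

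Cd4, the coreceptor of helper T cells, was at 5.60, 5.85 and 5.56 on the TLX3 arrays, against 5.89, 6.05 and 6.09 on the Rag2-/- arrays. The groups did not overlap, by a narrow gap, and every value lay below the array medians. The log2 difference was -0.34 ± 0.13 (SE; 95% interval -0.64 to -0.04), and the limma adjusted p of 0.0682 missed the threshold. It was -0.48 after repeated quantile normalization and -0.53 after cyclic loess, with adjusted p of 0.0285 and 0.0167 and still short of the minimum difference. Cd4 was above 90.2%, 95.5% and 91.8% of the olfactory and vomeronasal receptor genes on TLX3 replicates 1 to 3, against 97.5% to 98.1% on the Rag2-/- arrays. Cd4 minus Cd8a was -0.95, -0.47 and -0.69 on the TLX3 arrays, against -0.25, -0.30 and -0.17 on the Rag2-/- arrays, a change of -0.46 (exact permutation p = 0.1, two-sided, the smallest possible). Without TLX3 replicate 1 that change was -0.34.

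Dendritic cells and macrophages can also carry CD4 or CD8 alpha, and their markers differed between the groups. Of 20 such markers, 15 were called lower on the TLX3 arrays, beside 5.07% of all genes. The mean level of the list was 5.84 to 6.05 on the TLX3 arrays and 7.96 to 8.08 on the Rag2-/- arrays. On the TLX3 arrays 14 of the 20 lay under the array medians, and on the Rag2-/- arrays 3 did. Itgax, the CD11c integrin chain of dendritic cells, was at 5.35 on the TLX3 arrays against 7.88 on the Rag2-/- arrays. The marker H2-Aa was at 5.02 on the TLX3 arrays against 10.52 on the Rag2-/- arrays, where Cd3e was at 11.35. Of the markers known from CD8 alpha-bearing dendritic cells, Clec9a (-1.31) and Irf8 (-1.35) were called lower, and Xcr1 (-0.05) and Batf3 (0.31) were not called. Xcr1 lay under the array medians in both groups, at 5.61 on the TLX3 arrays and 5.66 on the Rag2-/- arrays. The part of these cells in the values of Cd4 and Cd8a was not tested.

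Themis and Arpp21, both measured well above the array medians, were lower on every TLX3 array. Themis, a T-lineage signalling protein required for double-positive cells to mature, was at 9.29, 9.49 and 9.64 on TLX3 replicates 1 to 3, against 10.52, 10.45 and 10.49 on the Rag2-/- arrays. The groups lay far apart beside their own ranges. The log2 difference was -1.02 ± 0.13 (SE; 95% interval -1.31 to -0.72; limma adjusted p = 0.00071), a 2.02-fold lower level. That sits at the minimum difference: the call was lost without TLX3 replicate 1 (-0.92) or without Rag2-/- replicate 1 (-0.999), and after cyclic loess (-0.90), repeated quantile normalization (-0.93) or array weights (-0.93), each with an adjusted p still under 0.05.

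Arpp21, an RNA-binding phosphoprotein whose thymic form (Tarpp) is abundant in immature thymocytes, was at 9.78, 9.86 and 10.17 on the TLX3 arrays, against 11.33, 11.20 and 11.34 on the Rag2-/- arrays. The highest TLX3 array lay about a full log2 unit under the lowest Rag2-/- array. This was a log2 difference of -1.35 ± 0.14 (SE; 95% interval -1.67 to -1.04), a 2.55-fold lower level (limma adjusted p = 0.000286). Arpp21 was above 95.1% to 96.6% of probe sets on the TLX3 arrays and 98.6% to 99.0% on the Rag2-/- arrays, and Themis above 93.0% to 94.4% on the TLX3 arrays and 97.3% to 97.6% on the Rag2-/- arrays.

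Gene length moved with the groups beside these 2 genes. Among genes with a mean over the probe-set median, the longest 1 of 5 equal bins by length (2150 genes of 60995 bases or more) had a median log2 difference of -0.38, with 11.4% called lower and 0.512% called higher. In the bin of the shortest genes (2151) the median was 0.13, with 5.86% called lower. Themis, at 215461 bases, and Arpp21, at 171198, belong to the longest bin. Satb1 (97104 bases) and Ikzf3 (81422) belong to it too, with positive differences. The markers of DN thymocytes, with their median of -0.56, were lower beside them as well. The part of length and of these markers in the values of Themis and Arpp21 was not tested.

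**Figure D4:**
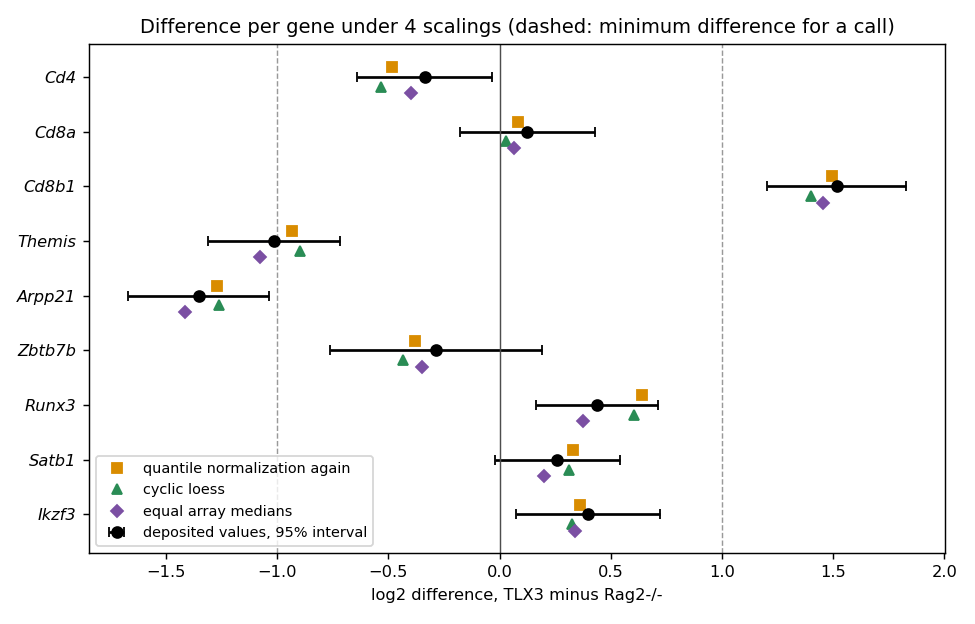
Log2 difference, TLX3 minus Rag2-/- (horizontal axis), of the 9 genes in the deposited values, with its 95% interval in black, and after 3 other scalings as coloured symbols. Cd8b1 and Arpp21 lie outside the dashed lines at -1 and 1 under every scaling drawn, Themis lies on either side of -1, and the other 6 lie inside.

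The transcription factors of the lineage choice were not called. Runx3, which silences Cd4 and promotes the CD8 lineage, was at 8.01, 8.22 and 8.08 on the TLX3 arrays, against 7.61, 7.70 and 7.69 on the Rag2-/- arrays. The groups did not overlap. The log2 difference of 0.44 ± 0.12 (SE; 95% interval 0.16 to 0.71) passed the limma adjusted p (0.0187) and was short of the minimum difference. It was 0.64 after repeated quantile normalization and 0.61 after cyclic loess, and 0.38 with equal array medians, where the adjusted p was 0.0516.

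Zbtb7b, which encodes ThPOK, the factor of the CD4 lineage, was at 6.33, 5.58 and 5.92 on TLX3 replicates 1 to 3, against 6.04, 6.11 and 6.55 on the Rag2-/- arrays. The groups overlapped, and both spread widely, with an SD of 0.38 on the TLX3 arrays and 0.28 on the Rag2-/- arrays. TLX3 minus Rag2-/- came to -0.29 ± 0.21 (SE; 95% interval -0.76 to 0.19; limma adjusted p = 0.289), near the array medians. It depended on single arrays: -0.48 without TLX3 replicate 1, -0.11 without TLX3 replicate 2 and -0.13 without Rag2-/- replicate 3. Zbtb7b minus Runx3 was -1.67, -2.64 and -2.16 on the TLX3 arrays, against -1.57, -1.59 and -1.14 on the Rag2-/- arrays, a change of -0.72 (exact permutation p = 0.1, two-sided, the smallest possible). The change was -0.48 without TLX3 replicate 2.

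Natural killer cells also express Runx3, and 9 of 15 of their markers were called lower on the TLX3 arrays, beside 5.07% of all genes. The mean level of the list was 5.63 to 5.81 on the TLX3 arrays and 7.06 to 7.28 on the Rag2-/- arrays. On the TLX3 arrays 11 of the 15 lay under the array medians, against 2 on the Rag2-/- arrays. The NK receptor Ncr1 was at 4.87 on the TLX3 arrays against 7.85 on the Rag2-/- arrays. Gzma, on the same list, was at 9.73 on the TLX3 arrays against 8.97 on the Rag2-/- arrays. Its log2 difference of 0.76 (limma adjusted p = 0.00782) was short of the minimum difference. The part of NK cells in the value of Runx3 was not tested.

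Satb1, a genome organizer needed for thymocyte development and for the expression of coreceptor genes, was measured far above the array medians. Its level was 11.40, 11.62 and 11.66 on the TLX3 arrays, against 11.28, 11.30 and 11.31 on the Rag2-/- arrays. The groups did not overlap, though the lowest TLX3 array lay close to the Rag2-/- arrays. Between the group means lay 0.26 ± 0.12 (SE; 95% interval -0.02 to 0.54; limma adjusted p = 0.118). The adjusted p was 0.0292 without TLX3 replicate 1, where the difference was 0.34.

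Ikzf3 encodes Aiolos, an Ikaros-family zinc-finger factor of lymphocytes. It was at 6.42, 6.85 and 6.54 on the TLX3 arrays, against 6.23, 6.26 and 6.12 on the Rag2-/- arrays, near the array medians and without overlap. The log2 difference of 0.40 ± 0.14 (SE; 95% interval 0.08 to 0.72) had a limma adjusted p of 0.0491, at the edge of the threshold, and stood beside a median of 0.32 for the olfactory and vomeronasal receptor genes. It was 0.0663 when no probe set was left out as a control and 0.115 after cyclic loess, and the difference was 0.28 without TLX3 replicate 2. Markers of B cells, which also express Ikzf3, had no call in 9 measured, beside 6.51% of all genes. The mean level of that list was 5.49 to 5.70 on the TLX3 arrays and 5.55 to 5.66 on the Rag2-/- arrays.

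None of the 11 measured paralogs of these genes was called, beside 6.51% of all genes. Ikzf1 (Ikaros) had a log2 difference of 0.40 (limma adjusted p = 0.0385), and Ikzf4 (Eos) one of -0.51 (0.0204). Runx1, the RUNX factor of early thymocytes, was at -0.50 (0.042), Themis2 at -0.46 (0.0299) and R3hdm1, related to Arpp21, at -0.48 (0.033). Ikzf2, Ikzf5, Zbtb7a, Zbtb7c, Themis3 and R3hdm2 did not pass the adjusted p, with differences between -0.38 and 0.45. Of the 11, Zbtb7a changed sign between the deposited, quantile and loess scalings, at -0.10 in the deposited values and 0.08 after repeated quantile normalization. Runx3 and Runx1 thus had differences of opposite sign. Themis2 had the same sign as Themis. Themis3 had the opposite sign (0.45, limma adjusted p = 0.0592) but lay under the array medians in both groups. It was at 5.23 on the TLX3 arrays and 4.78 on the Rag2-/- arrays.

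Factors known to act on Cd4 and Cd8 transcription gave no call in 20 measured, beside 6.51% of all genes. Their median log2 difference was -0.07, beside 0.11 over all genes, and all 20 lay above the median of probe sets in both groups. Without the minimum difference, 3 were higher and 5 lower, beside 23% higher and 19.4% lower of all genes. Gata3, which drives CD4-lineage fate upstream of ThPOK, was at 0.66 (limma adjusted p = 0.00654), and Hdac3, a histone deacetylase, at 0.47 (0.0137). Bcl11b (-0.65), the chromatin remodeller Smarca4 (-0.58) and Patz1 (-0.52), a zinc-finger factor known to repress Cd8 genes, were on the lower side. Tox, which drives CD4-lineage development, was at 0.21 and did not pass the adjusted p.

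Of 20 further measured genes of the double-positive stage, Ccr9 was called higher and 19 were not called, beside 6.51% of all genes called. Ccr9, a chemokine receptor of double-positive cells, was at 9.06 on the TLX3 arrays against 7.47 on the Rag2-/- arrays. Like Cd8b1 it was higher on all 3 TLX3 arrays, with a log2 difference of 1.59 ± 0.18 (SE; limma adjusted p = 0.00038). Without the minimum difference the list was split evenly, with 6 higher and 6 lower, beside 23% higher and 19.4% lower of all genes. On the higher side were Endou (0.89), the scavenger receptor Cd6 (0.88), its relative Cd5 (0.82) and Cd27 (0.60). On the lower side were Slamf1 (-0.89), the aquaporin Aqp11 (-0.85), Cd3d (-0.66), Cd2 (-0.62), Bcl2l1 (-0.54) and Dntt (-0.45). After repeated quantile normalization and after cyclic loess, Endou and Cd6 were called higher too and Slamf1 was called lower. Without TLX3 replicate 1, Cd5 (1.06) and Cd28 (1.03) were called higher beside Ccr9. The median of the list was 0.03. Rag1, Rag2, Cd3d and Dntt are also on the list of DN thymocyte markers, and Cd3d and Dntt are among the 6 lower.

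Genes of single-positive and mature T cells gave 6 calls lower and none higher in 19 measured, beside 5.07% of all genes called lower. Their median was -0.34. On the TLX3 arrays 12 of the 19 lay under the array medians, among them Gzmb, Ms4a4b, Gimap4 and Cd44, against 5 on the Rag2-/- arrays. The 6 called were Gzmb (-1.49), Ms4a4b (-1.43), Gimap4 (-1.37), Cd44 (-1.35), Ctla4 (-1.28) and Nkg7 (-1.19). Gzmb and Nkg7, which encode cytotoxic granule proteins, are also on the NK list, of which 9 of 15 were called lower. The other 4 are not on it, but which cells gave the values of the 6 was not tested. A place on the list does not show that mature T cells were present, since Rag2-/- mice cannot rearrange antigen receptor genes. The chemokine receptor Ccr7 (-0.18) did not pass the adjusted p, and S1pr1, the receptor by which mature thymocytes leave the thymus, was at -0.72 (limma adjusted p = 0.00207), short of the minimum difference.

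Of 13 measured genes whose products work beside the coreceptors, Fyn was called lower and 12 were not called, beside 6.51% of all genes called. Fyn, a kinase related to Lck, was at 8.16 on the TLX3 arrays against 9.24 on the Rag2-/- arrays, a log2 difference of -1.08 that shrank to -0.90 after repeated quantile normalization and to -0.91 after cyclic loess, where it was not called. Zap70, the kinase recruited to the receptor beside Lck, was at 0.73 in the opposite direction (limma adjusted p = 0.00304). The adaptor Lat was at -0.68, the phosphatase Ptprc (CD45), which activates Lck, at -0.74, and B2m, the light chain of the MHC class I ligand of CD8, at -0.78. Lck, H2-K1 and H2-D1 lacked a probe set with a single symbol and have no value here. The median of the list was -0.40.

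**Figure D5:**
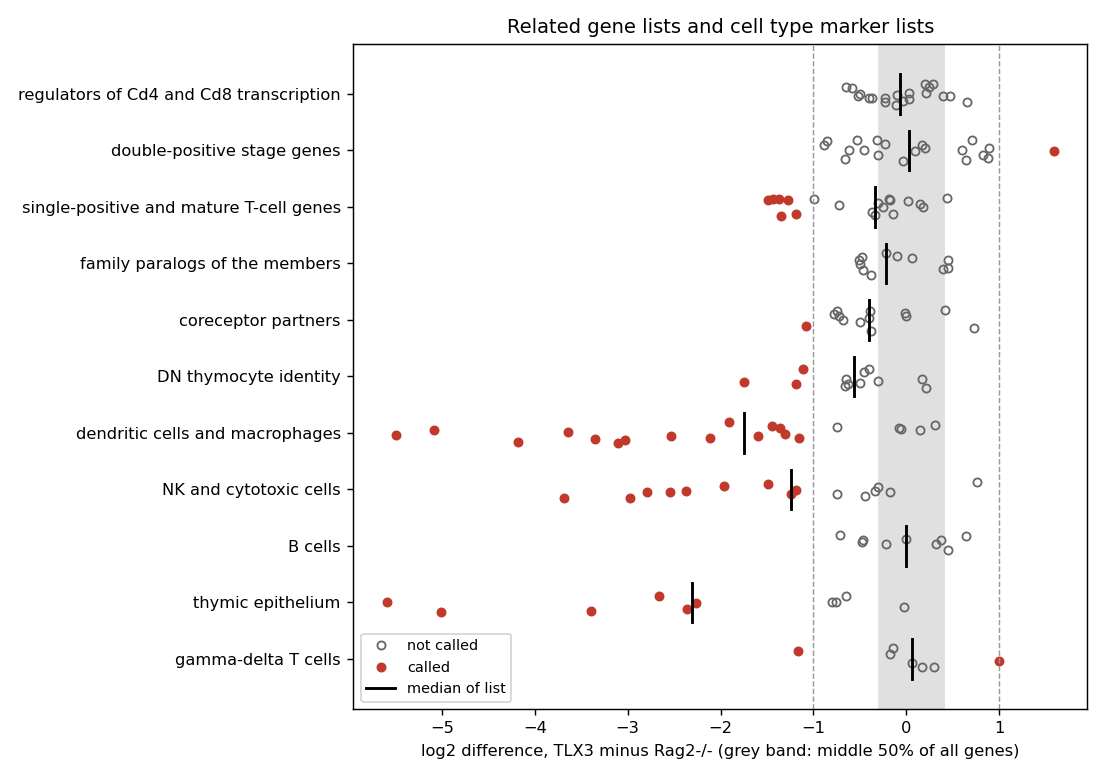
Log2 difference, TLX3 minus Rag2-/- (horizontal axis), of each measured gene in 5 lists related to the coreceptors (upper rows) and 6 lists of cell type markers (lower rows), with called genes filled and the median of each list as a black bar. Double-positive stage genes spread to both sides of 0, and the dendritic, NK and epithelial markers reach furthest to the left.

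Markers of thymic epithelium, which a thymus sample could hold, moved with the groups as well. Of 10 thymic epithelial markers 6 were called lower and 4 were not called, beside 5.07% of all genes called lower. The mean level of the list was 6.41 to 6.69 on the TLX3 arrays and 8.64 to 9.28 on the Rag2-/- arrays. Prss16 was at 5.89 on the TLX3 arrays against 11.49 on the Rag2-/- arrays, and Ccl25 at 5.69 against 10.70. The DN thymocyte marker Cd3e was at 11.35 on the Rag2-/- arrays. Of 7 measured gamma-delta T-cell markers Il17a (1.00) was called higher and Cd163l1 (-1.16) lower, beside 1.44% and 5.07% of all genes. After repeated quantile normalization, after cyclic loess and without TLX3 replicate 1 neither direction had a call, and with equal array medians, with array weights or without Rag2-/- replicate 2 none was called higher. The mean level of the gamma-delta list overlapped between the groups, at 6.53 to 6.70 on the TLX3 arrays and 6.58 to 6.67 on the Rag2-/- arrays. Its median log2 difference was 0.07. Since Rag2-/- mice cannot rearrange antigen receptor genes, a marker level there need not come from gamma-delta T cells. The part of epithelial or gamma-delta T cells in the values of the 9 genes was not tested.

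The genes most like each of the 9 over the 6 arrays were found by the root mean square distance between profiles centred on their own mean, among the genes with a group mean above the median of probe sets. For Cd8b1 the 3 nearest of 11636 genes were the histone gene H2bc1, the serine hydroxymethyltransferase gene Shmt2 and Qk, at distances of 0.11 to 0.14 log2 units. For Arpp21 they were Eif2s3y, Pnn and Tia1, at 0.0393 to 0.0506, and for Themis Gigyf1, Erbin and Phf14, at 0.0329 to 0.044. For Runx3 they were Emc4, Zfp362 and Slc35c1, for Satb1 Mrpl3, Foxred2 and Kat5, and for Ikzf3 Rtn4rl1, Hdgf and Taldo1. For Cd4 they were Mindy1, Gstt2 and Itm2c, for Cd8a Gm6548, Tmem255b and Pik3r2, and for Zbtb7b Aurkc, Myo18b and Acp1. No other gene of the 9 was among the 3 nearest of any of them. With 6 arrays in 2 groups, such likeness mostly follows the difference between the groups.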

How the data were processed

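The 6 one-colour Affymetrix arrays were compared as 3 TLX3 and 3 Rag2-/- samples. The deposited values are on the log2 scale; R 2.9.0, affy and RMA, which corrects background, equalizes array distributions and summarizes probes, are named in the submitters' processing notes, and no source used here gives a genome build. Over the tested probe sets the deposited arrays still differed in interquartile range, as given above. Scanner files were not used here, so no detection call or scan batch could be examined. Of 34760 probe sets, 6568 numbered apart from the genome-ordered ones were taken as controls and left out. The other 28192 were fitted with limma 3.58.1 in R 4.3.3 (lmFit and eBayes, two-sided), with Benjamini-Hochberg adjustment over all of them. Calls needed an adjusted p under 0.05 and a log2 difference of 1 or more in size. GEO's platform annotation gave 21640 probe sets 1 symbol, 1321 several and 5231 none; of a gene's single-symbol probe sets, the one of highest mean stood for each of 19937 genes. The number of arrays limits the precision.

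Pairs of genes were compared by an exact permutation test over arrays. The labels name no pairing of replicates, and the samples were compared as unpaired. Same-numbered arrays had correlations of deviations of -0.11, 0.06 and -0.00. With 3 arrays a group these values cannot show whether a pairing existed. The fit was tested on simulated data. The named genes are the 9 members, the called genes of each list, paralogs and partners, and the 3 most like genes; other genes of the lists were named after their values were seen. The 9 genes and all lists were chosen with earlier results of these data known. Figures were drawn with matplotlib 3.10.9.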

Additional observations from a re-analysis of the deposited data

How the results depend on the processing

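Over other scalings, filters on low levels, variance settings, array weights, the mean of probe sets and single arrays left out, no difference of the 9 genes and no pair reversed. Themis missed the minimum difference after repeated quantile normalization (-0.93), cyclic loess (-0.90) and array weights (-0.93), leaving 1 gene called lower in each, and lay between -1.10 and -0.92 with 1 array left out, where 1 to 2 genes were called lower and 2 to 3 in all; the cause was not tested. Restricted to probe sets above the median level, 0 genes were called higher, since Cd8b1 was not among those tested. With no minimum difference, Runx3 (0.44) and Ikzf3 (0.40) passed too, giving 5 genes, 3 of them higher, and 4595 genes of the whole array higher and 3858 lower, against 288 and 1010. limma's treat, which tests for a difference beyond 1, called 0 of the 9, 0 higher and 0 lower (Cd8b1 1.52, adjusted p = 0.18; Arpp21 -1.35, 0.705; Themis -1.02, 1), and 7 genes higher and 122 lower of the whole array. Taking the replicate number as a block left Cd8b1 at 1.52, Themis at -1.02 and Arpp21 at -1.35, all called, and changed no other call; the exact permutation p of the pairs was then 0.25. Keeping all probe sets, an alternative chosen after seeing the data, left 3 genes called. Cd4, Cd8a, Zbtb7b, Ikzf3 and the Rag2-/- level of Cd8b1 lay near or under the array medians. The olfactory and vomeronasal receptor genes had a median difference of 0.32, so the true size of such differences is not known.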
